A study of Mus musculus with 8 samples.

Results

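Apelin, the secreted peptide encoded by Apln, and the apelin receptor, encoded by Aplnr, were followed on 8 mouse retina arrays. The members were every probe set that the platform annotation assigned to exactly 1 symbol, that symbol being Apln or Aplnr. They numbered 3 of 34945 probe sets with a single symbol, which is 2 genes of 18193. Apln had 1 probe set (1451038_at) and Aplnr had 2 (1438651_a_at and 1423037_at). The study compared retinas with and without forced expression of Edn2, the gene of the vasoconstrictor peptide endothelin 2. The 4 Z/Edn2 samples were from pups carrying both Z/Edn2, a transgene switched on by Cre, and Six3-Cre, which drives recombination in the developing neural retina. The 4 Control samples came from Six3-Cre pups without the Z/Edn2 allele, so Six3-Cre was common to both groups. All pups were taken at postnatal day 8, on a mixed background that was mainly C57BL/6 and 129, and each sample was a pool of the retinas of 2 to 3 pups.

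Apelin signals through a single G protein-coupled receptor, to which the peptide Apela also binds. In the growing mouse retina, apelin is made by endothelial tip cells, the leading cells of vessel sprouts, while the receptor is found in the endothelium behind them and in veins. Apelin is also known as a gene that low oxygen can induce through hypoxia-inducible factors, and the pathway is known for roles in vessel growth and vessel calibre. Vessels grow across and into the mouse retina during the first postnatal weeks, so day 8 lies within that growth.

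The deposited values were log2 signals made with RMA, a method that corrects background, normalizes between arrays and sums the probes of each probe set. A log2 difference is always Z/Edn2 minus Control here, and a difference of 1 is a 2-fold change. Signals of different probe sets depend on their probes and were not compared as levels. The pair was chosen from results of this same contrast, in which both genes passed limma's threshold (adjusted p under 0.05). Each gene entered that test by its probe set of highest mean signal. For Aplnr this was 1438651_a_at, so the call does not cover 1423037_at. Limma called 31 genes higher (0.17% of all genes) and 9 lower (0.0495%), and with the replicate number as a block 71 higher (0.39%) and 26 lower (0.143%). The differences of Apln and Aplnr are therefore given as a description with no test.

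In RefSeq's assembly GRCm38.p6 the ligand gene lies on chromosome X at 48025146 to 48034853 and the receptor gene on chromosome 2 at 85136360 to 85139923. Apln was higher in Z/Edn2, as were all 21 hypoxia response genes and 14 of 18 tip cell genes described further on, whether called or not. By limma 8 of the 21 and 3 of the 18 passed as higher. Of all 18193 genes, 9961 had a positive difference. The window around the start site of Apln is shown beside that of Adm, which is on both lists. The part of low oxygen in these values was not tested. Adm encodes the vasodilator adrenomedullin and stood among the genes most like Apln. Each window runs from 250 bases before to 50 bases after the start site on the gene's own strand, at chrX:48034804-48035103 on the minus strand for Apln and chr7:110627407-110627706 on the plus strand for Adm, both from RefSeq and GRCm38.p6. Capitals mark ACGTG or GCGTG, the core letters bound by hypoxia-inducible factors, on either strand.
Apln: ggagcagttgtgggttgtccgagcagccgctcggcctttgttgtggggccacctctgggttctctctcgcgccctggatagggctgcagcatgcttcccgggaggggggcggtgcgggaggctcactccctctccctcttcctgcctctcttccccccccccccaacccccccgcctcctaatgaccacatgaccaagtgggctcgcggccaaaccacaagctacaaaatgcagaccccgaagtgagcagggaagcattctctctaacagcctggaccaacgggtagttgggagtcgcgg
Adm: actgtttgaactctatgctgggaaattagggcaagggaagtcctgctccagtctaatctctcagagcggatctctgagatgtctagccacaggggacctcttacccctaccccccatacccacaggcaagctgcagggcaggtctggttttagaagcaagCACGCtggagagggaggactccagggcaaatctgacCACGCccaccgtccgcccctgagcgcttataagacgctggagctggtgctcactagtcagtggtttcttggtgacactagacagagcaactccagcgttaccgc

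The Adm window held the core 2 times, both as GCGTG read on the opposite strand, with the match beginning 90 and 54 bases before the start site. The Apln window held 0 copies, which says only that these letters are not in its 300 bases. Of 32851 windows of the same length, 43.8% held at least 1 copy of either core (19.6% ACGTG and 32.4% GCGTG). Of the 28 windows of the hypoxia response list 21 held it, and these windows belonged to 19 genes, many of them known for such sites. The Apln window had a GC content of 64.0% and 15 CpG dinucleotides.

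Apln was higher on every Z/Edn2 array than on any Control array. Its log2 signal was 7.74, 7.76, 7.78 and 7.80 in Z/Edn2 replicates 1 to 4, against 7.04, 7.17, 7.13 and 7.20 in Control replicates 1 to 4. The groups did not overlap, and the lowest Z/Edn2 value lay 0.54 above the highest Control value. The means were 7.77 ± 0.0234 in Z/Edn2 and 7.14 ± 0.0713 in Control (SD, n = 4 each), a log2 difference of 0.63 ± 0.0729 (limma's SE) or 1.55-fold. The Z/Edn2 values spanned only 0.0523, and 0.435% of all probe sets had a smaller SD in that group. Among same-numbered samples the difference was between 0.58 and 0.71.

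Aplnr was lower on every Z/Edn2 array than on any Control array by both probe sets, but by very different amounts. By 1438651_a_at the log2 signal was 6.72, 6.01, 7.22 and 6.64 in Z/Edn2 replicates 1 to 4, against 8.21, 8.97, 8.69 and 8.92 in Control replicates 1 to 4. The groups were separated by 0.99, with Z/Edn2 2 lowest of all and Control 1 the lowest Control. The means were 6.64 ± 0.496 in Z/Edn2 and 8.70 ± 0.349 in Control (SD, n = 4 each), a log2 difference of −2.05 ± 0.250 (SE), which left the Z/Edn2 mean at 0.241 of the Control mean. In single Z/Edn2 arrays the signal was between 0.155 and 0.358 of the Control mean. Only 1 of the 34945 probe sets had a more negative difference.

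By 1423037_at, Aplnr had a log2 signal of 6.30, 5.94, 6.22 and 5.98 in Z/Edn2 replicates 1 to 4, against 6.51, 6.61, 6.38 and 6.49 in Control replicates 1 to 4. These groups did not overlap either, but the gap was 0.0777. The difference was −0.39 ± 0.104 (SE), from means of 6.11 ± 0.177 in Z/Edn2 and 6.50 ± 0.0944 in Control (SD, n = 4 each), or 0.764 of the Control mean. Of all probe sets, 354 had a more negative difference. No overlap between groups was seen for all 3 probe sets of Apln and Aplnr and for 3.13% of all probe sets (2.32% higher and 0.813% lower), a share from which nothing is read because the contrast chose the genes.

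**Figure D1:**
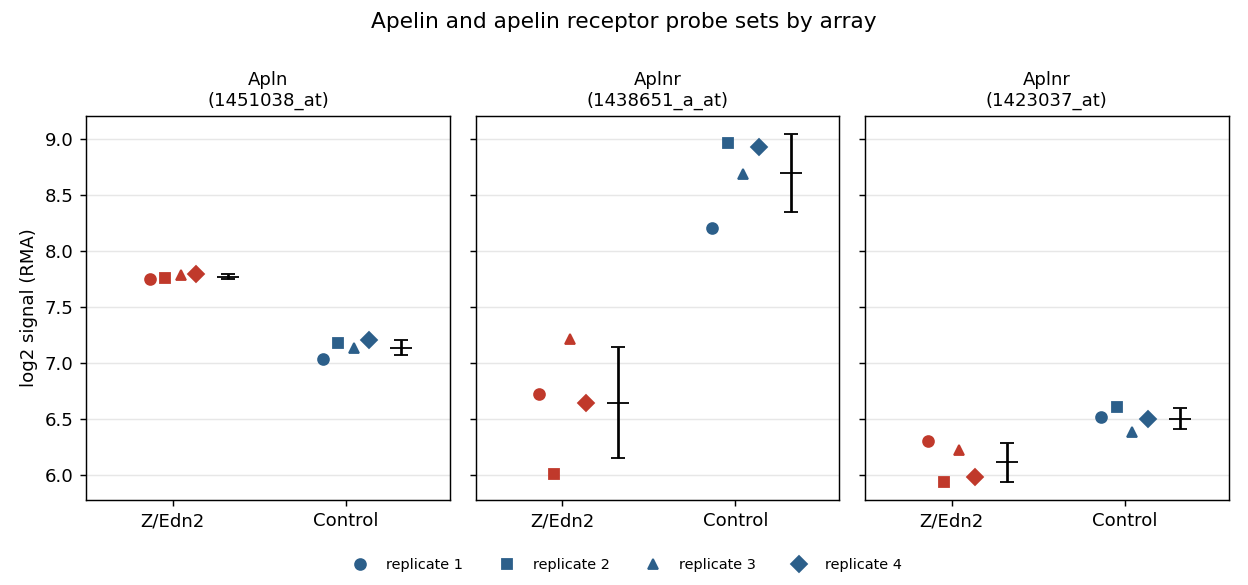
Log2 signal (RMA, vertical axis) of the Apln probe set and the 2 Aplnr probe sets in 4 Z/Edn2 (red) and 4 Control (blue) arrays, with symbols for replicate numbers and bars for the mean ± SD of each group. Apln lies at 7.74 to 7.80 in Z/Edn2 and 7.04 to 7.20 in Control, and Aplnr is lower in Z/Edn2 by both probe sets; heights should not be compared between panels.

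The disagreement between the Aplnr probe sets was itself seen in each Z/Edn2 array. Measured from each probe set's own Control mean, 1438651_a_at was lower than 1423037_at by 1.20 to 2.13 on the log2 scale in the Z/Edn2 arrays. In Control arrays the same quantity was between −0.51 and 0.23. The sources used here did not say which part of the transcript each probe set covers.

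Ligand and receptor moved apart on all 4 Z/Edn2 arrays. For each array the receptor's deviation from its Control mean was subtracted from the ligand's. With 1438651_a_at this log2 shift was 2.59, 3.31, 2.13 and 2.72 in Z/Edn2 replicates 1 to 4, against 0.39, −0.23, 0.0042 and −0.16 in Control replicates 1 to 4. Its mean was 2.69 in Z/Edn2 (SD 0.488, with 0.279 in Control, n = 4 each), a 6.44-fold change in the ratio of ligand to receptor signal. With 1423037_at the mean shift was 1.02 in Z/Edn2 (SD 0.188, with 0.110 in Control), or 2.03-fold. Within the Z/Edn2 group Apln had a range of 0.0523, while Aplnr had a range of 1.21 by 1438651_a_at and 0.36 by 1423037_at.

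**Figure D2:**
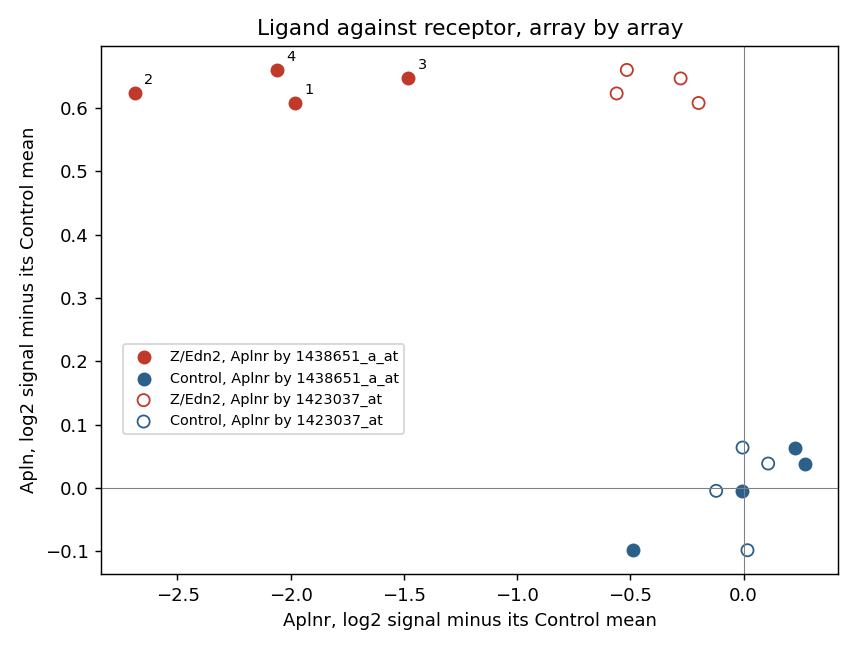
Each point is 1 array, with Aplnr (horizontal axis) and Apln (vertical axis) as log2 signal minus the mean of the 4 Control arrays. Filled points use 1438651_a_at and open points 1423037_at for Aplnr; the numbers are Z/Edn2 replicates. Z/Edn2 arrays lie at the upper left, with Apln between 0.61 and 0.66 and Aplnr between −2.69 and −0.20, while Control arrays lie around 0.

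One array, Z/Edn2 3, was unlike the rest. The median of its signals was 6.28, where the other 7 arrays had 6.14 to 6.17, and its signal for the bioD spike-in (5′ probe set) was 9.30, where the others had 11.3 to 11.6. Xist, which is transcribed from the silenced X chromosome of female cells, had a signal of 6.57 there, where the other Z/Edn2 arrays had 11.2 to 12.4 and Control arrays 10.2 to 12.1. Averaged over 3 Y-linked genes (Eif2s3y, Kdm5d and Uty), the signal was 8.19 there and 6.40 to 7.53 on the others. Apln, itself on the X chromosome, was at 7.78 on Z/Edn2 3, between the 7.74 and 7.80 of Z/Edn2 1 and Z/Edn2 4. Without Z/Edn2 3 the differences were 0.63 for Apln, and −2.24 and −0.43 for the 2 Aplnr probe sets. Edn2 had a low signal in both groups, at 4.00 to 4.28 in Z/Edn2 and 3.87 to 4.12 in Control. Its log2 difference was 0.18 (limma adjusted p = 0.971), and whether its probe set lies within the transgene is not given in the sources used here. Retinal identity was plain in both groups, with Nrl, the rod transcription factor, at 13.3 ± 0.101 in Z/Edn2 and 13.4 ± 0.0433 in Control (log2 signal, SD, n = 4 each).

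The rest of the apelin pathway gave no call. Of 23 genes listed for the second ligand, peptide processing and breakdown, related receptors, G proteins, arrestins and the reported downstream factors, 21 were measured. By limma 0 passed over all genes in either direction, where 0.22% of all genes passed, and 0 had an unadjusted p under 0.05, where 5.27% of all genes did. With the variance modelled by trend and robustly, and with the replicate block, 0 passed as well. The median log2 difference of the list was −0.012 (range −0.35 to 0.27), beside 0.014 for all genes.

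The other ligand and the processing genes lay close to their Control values. Apela, the second peptide ligand of the receptor, averaged 3.67 ± 0.170 in Z/Edn2 and 3.71 ± 0.0724 in Control (log2 signal, SD, n = 4 each), and its difference of −0.033 ± 0.0966 (SE) turned in sign when replicate 4 was left out (0.063). Only 8.59% of genes had a lower mean signal over the 8 arrays. Furin, the protease that cuts the apelin precursor, differed by −0.012 ± 0.108 (SE). Mme, or neprilysin, and Klkb1, plasma kallikrein, which can cut the peptide, differed by 0.025 ± 0.118 and 0.031 ± 0.0879. The signal of Mme was low too, at 3.48 in Z/Edn2 and 3.46 in Control, and 6.53% of genes had a lower mean. At such levels a small difference may reflect a dim signal. The receptor kinase gene Grk2 was not analysed here.

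Among receptors and their signalling partners the largest differences did not pass. Agtr1a, the angiotensin receptor most closely related to Aplnr, averaged 4.66 ± 0.402 in Z/Edn2 and 4.40 ± 0.168 in Control (SD, n = 4 each), a difference of 0.27 ± 0.180 (SE; limma adjusted p = 0.974) that was 0.080 without Z/Edn2 3 and 0.070 to 0.44 without a same-numbered pair. Agtr1b, its close copy in rodents, differed by 0.074 ± 0.121, which turned to −0.033 without replicate 2. The signal of Agtr1b was low, at 3.72 in Z/Edn2 and 3.64 in Control, and 8.45% of genes had a lower mean. Arrb1, a beta-arrestin that binds activated receptors, had the smallest p of the list. Its signal was 8.25, 7.92, 8.32 and 8.25 in Z/Edn2 replicates 1 to 4, against 7.84 to 8.02 in Control, and the groups overlapped because Z/Edn2 2 was low. The log2 difference was 0.21 (limma adjusted p = 0.94). The inhibitory G protein gene Gnai3 differed by 0.13 ± 0.104 (0.077 without Control 2, 0.059 without replicate 2) and Gnaq, of another G protein class, by −0.10 ± 0.109. For Gnaq the difference was −0.039 without Control 3, −0.18 without Control 1 and −0.025 as the mean of its probe sets.

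Klf2, a flow-responsive endothelial factor reported downstream of the apelin receptor, was the most negative gene of the list. Its signal was 5.04, 4.82, 5.54 and 4.95 in Z/Edn2 replicates 1 to 4, against 5.49, 5.85, 5.23 and 5.18 in Control replicates 1 to 4. Z/Edn2 3 lay above 3 of the 4 Control arrays, and the difference of −0.35 ± 0.181 (SE) did not pass (limma adjusted p = 0.971). Over omissions of a single array it was −0.50 (without Z/Edn2 3) to −0.21 (without Control 2), and over omissions of a same-numbered pair −0.57 (replicate 3) to −0.12 (replicate 2). Mef2c, a transcription factor placed between the receptor and Klf2, differed by −0.12 ± 0.118, or −0.026 as the mean of its probe sets. With single arrays omitted it was −0.21 (Control 1) to −0.027 (Control 3), and −0.066 with Z/Edn2 2 omitted. Nos3, the endothelial nitric oxide synthase, averaged 6.30 ± 0.185 in Z/Edn2 and 6.41 ± 0.149 in Control (SD, n = 4 each).

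By 1438651_a_at Aplnr had a more negative difference than all 24 pan-endothelial and all 10 venous genes listed, while by 1423037_at 6 of the 24 were more negative. In whole retina, fewer endothelial cells and less RNA per cell cannot be told apart, so the receptor was set beside 24 pan-endothelial genes. Of these, 2 fell (0.0495% of all genes fell) and 0 rose by limma, and the median difference was −0.21. The lower count was 0 without replicate 4, and 1 without Z/Edn2 4, any single Control array or replicate 1, 2 or 3, and as the mean of each gene's probe sets. It was 3 without Z/Edn2 1. In 5 of the 24 the Z/Edn2 arrays all lay below the Control arrays, as in 1.01% of all genes, and in 0 above, as in 2.67% of all genes. The mean of the 24 genes, taken from the Control mean, was −0.21, −0.48, −0.041 and −0.33 in Z/Edn2 replicates 1 to 4, against −0.054, 0.064, 0.0063 and −0.017 in Control replicates 1 to 4. On the Z/Edn2 arrays its order was the same as that of Aplnr by 1438651_a_at, with Z/Edn2 2 lowest, then 4, 1 and 3. The mean of the apelin pathway list, −0.081 to 0.086 in Z/Edn2, had this order too, so the order was not particular to endothelial genes. By 1423037_at the order of Aplnr was another, with Z/Edn2 2 lowest, then 4, 3 and 1. The pan-endothelial mean of Z/Edn2 3 lay within the Control range. Aplnr on that array was 1.48 below its Control mean by 1438651_a_at and 0.28 below by 1423037_at.

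When this endothelial mean was subtracted on each array, the receptor by 1438651_a_at was still lower in Z/Edn2, at −1.44 to −2.21 against −0.44 to 0.24 in Control. By 1423037_at it was at −0.24 to 0.0086 in Z/Edn2 and −0.13 to 0.071 in Control, so the groups overlapped, and the mean difference was −0.13. Apln minus the endothelial mean was 0.69 to 1.10 in Z/Edn2 and −0.044 to 0.081 in Control. The 2 Aplnr probe sets thus differed on whether the receptor was lower than the endothelial genes as a whole. These values are descriptions from the contrast that chose the genes.

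Tek and Ptprb were the 2 pan-endothelial genes that fell. Tek, the receptor of angiopoietins, was at −1.54 ± 0.137 (limma adjusted p = 0.00113, or 0.059 without replicate 4), and Ptprb, a phosphatase that acts on it, at −0.78 ± 0.108 (adjusted p = 0.0183, or 0.283 as the mean of its probe sets, and 0.0645 to 0.311 without Z/Edn2 4, any single Control array or any same-numbered pair). Cldn5, of endothelial tight junctions, had a difference of −0.91 (adjusted p = 0.113). Sox18, an endothelial transcription factor, and Ramp2, a receptor subunit for adrenomedullin, were at −0.51 and −0.41 (adjusted p = 0.34 and 0.168). These 5 genes had the smallest p of the 24. Of the whole list 19 genes had a negative difference and 5 a positive one, with Pecam1 (0.063) and Flt1 (0.062) among the positive. Of all 18193 genes, 8232 had a negative difference.

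Because Aplnr marks veins in the retina, lists of venous and arterial genes were set beside it. Of 10 venous genes, 2 fell and 0 rose (0.0495% and 0.17% of all genes), with a median difference of 0.083 (1 fell without replicate 1, 3 or 4). The 2 genes were Tek, which the pan-endothelial list also holds, and Slc38a5, a glutamine transporter of retinal vessels, at −1.71 ± 0.205 (SE; limma adjusted p = 0.00768, or 0.0624 and 0.157 without replicates 1 and 3). The defining venous factor Nr2f2 averaged 8.18 ± 0.0745 in Z/Edn2 and 8.10 ± 0.228 in Control, and the venous ephrin receptor Ephb4 averaged 6.15 ± 0.213 in Z/Edn2 and 6.09 ± 0.0959 in Control (log2 signal, SD, n = 4 each). Neither passed (adjusted p = 0.992 and 0.998), and both were named after their values were seen. All are signals of whole retina, and the part of cells outside vessels in the venous and arterial lists was not tested.

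Of 14 arterial genes 0 passed in either direction, 2 had an unadjusted p under 0.05 (5.27% of all genes did), and the median difference was 0.047. Sox17, an arterial transcription factor, had a difference of −0.40 (limma adjusted p = 0.541), although as the mean of its probe sets it fell by 0.81 on the log2 scale and passed (adjusted p = 0.0483). Unc5b, a guidance receptor of arteries and tip cells, was at 0.29 (adjusted p = 0.817), and Efnb2, the arterial ephrin, at 0.23 (adjusted p = 0.94).

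**Figure D3:**
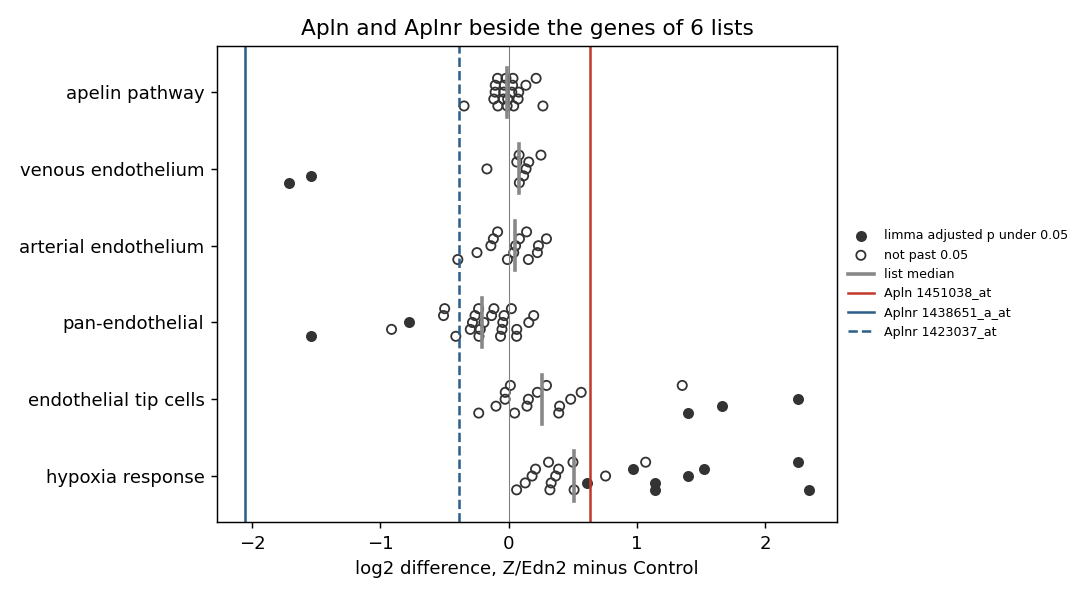
Log2 difference (Z/Edn2 minus Control, horizontal axis) of each measured gene of 6 lists, filled where limma's adjusted p was under 0.05; grey bars are list medians and vertical lines the 3 probe sets of Apln and Aplnr. The solid blue Aplnr line (−2.05) lies left of all genes shown, and the red Apln line (0.63) lies right of every apelin pathway, venous, arterial and pan-endothelial gene.

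Apln is a tip cell gene and a hypoxia-responsive gene, and both lists held members with larger differences. Of 18 other tip cell genes 3 rose and 0 fell by limma (0.17% and 0.0495% of all genes), with a median difference of 0.26. With the replicate block 4 rose (0.39% of all genes), with dim probe sets left out 1, and without Z/Edn2 2 it was 5. Of the 18 genes, 4 had a larger positive difference than Apln. These were Adm at 2.26, Kcne3, a potassium channel subunit, at 1.66, Esm1, a secreted proteoglycan, at 1.39, and Igfbp3, which encodes a binding protein for IGFs, at 1.35 (limma adjusted p = 0.000123, 4.03e-05, 0.0183 and 0.176). Kcne3 and Esm1 were dim, each with a Control mean of 2.99, and were among the genes left out with the dim probe sets. Only 9.90% and 8.54% of genes had a lower mean signal over the 8 arrays. Igfbp3 passed with the replicate block (adjusted p = 0.0361) and without Z/Edn2 2 (adjusted p = 0.0323). The mean of the tip cell list, taken from the Control mean, was 0.26 to 0.59 in Z/Edn2 and −0.0036 to 0.0035 in Control. Z/Edn2 2 gave the lowest of these means, whereas Apln on Z/Edn2 2 (7.76) was 1.54-fold its Control mean, close to the 1.52-fold to 1.58-fold of the other Z/Edn2 arrays. Of 21 hypoxia response genes 8 rose and 0 fell (0.17% and 0.0495% of all genes), or 12 and 0 with the replicate block (0.39% and 0.143%). The count was 3, 5 and 4 without replicates 2, 3 and 4, and 5 without Control 3 or Control 4, and 9 of the genes had a larger difference than Apln. Besides Adm, the genes of smallest p were Ndufa4l2, a mitochondrial protein, at 2.34 (limma adjusted p = 0.000191), and the glycolysis regulators Pfkfb3 and Pdk1, at 1.14 each (adjusted p = 0.00262 and 0.00748), together with Bnip3, which acts in the removal of mitochondria (adjusted p = 0.00056). Pfkfb3 did not pass without replicate 2 (adjusted p = 0.0535), nor Pdk1 without replicate 2, 3 or 4 (0.0512 to 0.196). The call of Esm1 was lost without Z/Edn2 3 or 4, any single Control array, or replicate 1, 3 or 4 (adjusted p = 0.0645 to 0.23).

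Markers of other cells that vessels and retina pools hold were checked with the same fit. Of 9 mural, 5 astrocyte and 8 microglial genes measured, 0 passed, with medians of 0.071, 0.46 and −0.088, and with 2, 3 and 3 at an unadjusted p under 0.05, beside 5.27% of all genes. With the replicate block 1 astrocyte gene rose. The astrocyte mean, taken from the Control mean, was 0.25 to 0.36 in Z/Edn2 and −0.16 to 0.20 in Control. Of 8 genes of retinal neurons and glia, 7 of the pigment epithelium and 6 of the lens, 0 passed, with 1, 0 and 0 at an unadjusted p under 0.05. The mural mean was −0.19 to 0.31 in Z/Edn2 and −0.20 to 0.17 in Control, and the microglial mean −0.21 to 0.081 in Z/Edn2 and −0.097 to 0.10 in Control. The mean of the neuronal and glial genes was −0.24 to −0.0080 in Z/Edn2 and −0.12 to 0.055 in Control. The pigment epithelium mean was −0.39 to 0.19 in Z/Edn2 and −0.12 to 0.18 in Control, and the lens mean −0.16 to 0.26 in Z/Edn2 and −0.22 to 0.18 in Control. The part of these cells in the values of Apln and Aplnr was not tested.

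Genes with the most similar pattern were sought among those whose signals spanned at least 1 log2 unit over the 8 arrays, about 1080 genes. The measure was Pearson's r over the 8 arrays, and with 2 groups that differ it mainly reflects that difference. The 5 genes most like Aplnr were Mfsd2a (r = 0.990), Tek (0.987), Ptprb (0.982), Adgrf5 (0.955) and Slc39a8 (0.954). Mfsd2a is the lipid transporter of barrier endothelium, Adgrf5 an adhesion receptor of endothelium, and Slc39a8 a zinc and manganese transporter. Mfsd2a had a signal of 5.39, 5.21, 5.56 and 5.39 in Z/Edn2 replicates 1 to 4, against 6.14, 6.45, 6.32 and 6.28 in Control replicates 1 to 4. As for Aplnr, Z/Edn2 2 was lowest and Z/Edn2 3 highest of the Z/Edn2 arrays, and Control 1 was the lowest Control. Adgrf5, which did not pass (difference −0.66, limma adjusted p = 0.296), had the same lowest and highest arrays. Mfsd2a was at −0.91 and Slc39a8 at −1.20 on the log2 scale (limma adjusted p = 0.00478 and 0.0126). Neither passed without replicate 4 (adjusted p = 0.125 each) or replicate 2, and Slc39a8 not without replicate 3 or Control 3.

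The 5 genes most like Apln were Muc2, a secreted mucin (r = 0.984), Adm (0.983), Anxa2, a membrane-binding annexin (0.981), Mt1, a metallothionein (0.979), and Kcne3 (0.977). Adm and Kcne3, the latter dim as given above, stood on the tip cell list. Anxa2 had a difference of 0.77 ± 0.0920 (SE; limma adjusted p = 0.00768, or 0.0523 to 0.123 without a same-numbered pair and 0.0853 as the mean of its probe sets) and Mt1 of 1.03 ± 0.0836 (adjusted p = 0.000614).

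After each group's own mean was removed, the genes most like Aplnr by 1438651_a_at over the 8 arrays were Mgp (r = 0.937), Mfsd2a (0.935) and Abcc9 (0.934). Being the highest of about 1080 genes on only 8 arrays, such values, here and for Apln below, can be high through the choice alone. They were not tested. By the same measure the 2 Aplnr probe sets correlated with each other at 0.57. Mgp, a matrix protein of vessel walls, was at 7.20, 6.86, 7.59 and 7.19 in Z/Edn2 replicates 1 to 4, against 6.13, 6.61, 6.26 and 6.34 in Control replicates 1 to 4. The within-group deviations of Mgp thus resembled those of Aplnr by 1438651_a_at, while the group difference of Mgp, 0.87 ± 0.154 (SE; limma adjusted p = 0.0801), had the opposite sign. Abcc9, a channel subunit of pericytes, was lowest in Z/Edn2 2 (5.38) and highest among Z/Edn2 arrays in Z/Edn2 3 (6.63). For Apln the closest were Hsf2 (0.910), Zfp882 (0.900) and Kdm6b (0.899), each lowest in Control 1, which was also the lowest array for Apln. The 3′ and 5′ actin control probe sets differed by 0.56 on Z/Edn2 1 and 0.65 on Control 1, and by 1.06 to 1.42 on the other 6 arrays. The part of this in the likeness was not tested.

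**Figure D4:**
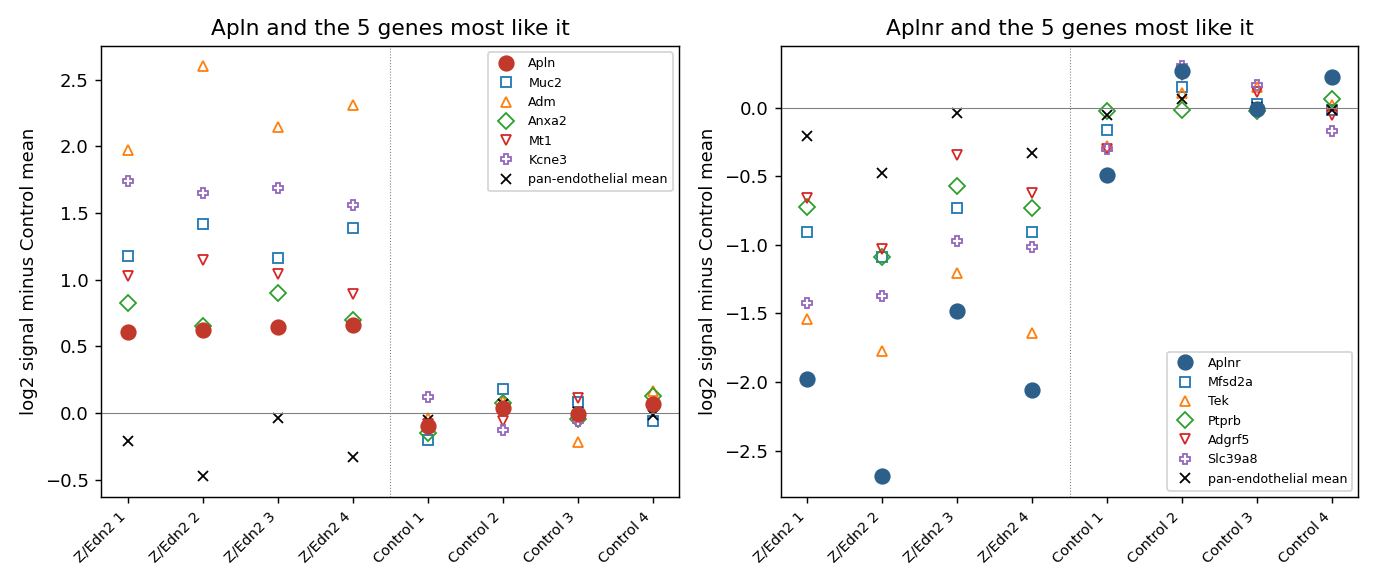
Log2 signal minus the mean of the 4 Control arrays (vertical axis) for Apln (left) and Aplnr by 1438651_a_at (right), each with the 5 genes of highest Pearson correlation and the mean of 24 pan-endothelial genes (crosses), by array. On the right, Aplnr is lowest in Z/Edn2 2 (−2.69) and highest among Z/Edn2 arrays in Z/Edn2 3 (−1.48), and the endothelial mean has the same lowest and highest arrays; on the left Apln is flat at 0.61 to 0.66 across the Z/Edn2 arrays.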

How the data were processed

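Per the labels, retinal RNA was biotin-labelled with an Affymetrix 3′ IVT Express kit and hybridised to 8 arrays. The authors deposited log2 signals per probe set, made with RMA per the submitters' processing notes (version not given in the sources used here), and they were used as deposited. The authors' deposited table also gave unadjusted p-values from an unnamed test, log2 fold changes and a signed fold score. It served only to fix the direction, since its log2 values equalled the differences of group means within 4.9e-08. Of 45101 probe sets, 34945 had 1 gene symbol, 932 several, 9160 none and 64 were array controls. By Entrez identifier, 34741 were found in RefSeq's GRCm38.p6 table, with 0 symbols changed.

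Genes (18193, each by the probe set of highest mean signal) were compared with limma 3.58.1 in R 4.3.3 (lmFit, eBayes, two-sided, Benjamini-Hochberg over all genes, threshold 0.05), which was tested on simulated data. SEs of the Apln and Aplnr probe sets come from the same fit over all 34945 probe sets. The labels call the samples biological replicates; p-values measure the spread between 8 pools, and the number of arrays limits the precision. Scan dates were not used here. After removal of group means, same-numbered arrays correlated across genes at 0.72, 0.39, 0.15 and 0.28. All exceed 0.1, so the number was taken as pairing, although Control 3 correlated more with Z/Edn2 4 (0.22) and Z/Edn2 2 (0.16) than with Z/Edn2 3. The main fit nevertheless did not use the pairing, which entered only as the replicate block, an alternative. Calls and adjusted p-values are from the unpaired fit unless the block or another alternative is named.

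The genes, the 12 lists (156 entries of 151 genes, 5 of them not analysed here) and the tests were chosen with earlier results of these data known. Named were all Apln and Aplnr probe sets, the 6 pathway genes with the smallest p plus Apela and the related receptors, up to 5 genes of smallest p per other list, the 5 most alike genes (3 after group means were removed), Edn2, Xist and 3 Y-linked genes. Others named were chosen after their values were seen. Alternatives were another variance model, leaving out dim probe sets, the replicate block, other probe set rules, other array scalings, and leaving out arrays or same-numbered pairs. A second quantile normalization was added after seeing the data.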

Additional observations from a re-analysis of the deposited data

Results flagged for a closer look

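In 5 of 80 groups of 4 arrays examined, 1 array lay far from the other 3, where chance gives about 1 in 20. None of these was a value of Apln or Aplnr or of their difference. Arrb1 was low in Control 4 (7.84, where the highest Control array was at 8.02). Ackr1, a chemokine receptor of the venous list, was high in Control 2 (10.64, against 10.45 to 10.47), and Ptprb was high in Control 4 (6.43, against 6.35 to 6.36). Unc5b was high in Z/Edn2 3 (7.28, against 6.93 to 6.95 in the other Z/Edn2 arrays), the array that stood apart in its median. Ndufa4l2, a hypoxia-induced mitochondrial protein, was high in Z/Edn2 1 (10.59, against 9.98 to 10.05).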

How the results depend on the processing

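Apln, Aplnr by each probe set and the ligand minus receptor shift kept their direction under every alternative run. Over omissions of an array or a same-numbered pair the log2 difference was 0.60 to 0.66 for Apln, −2.25 to −1.75 for Aplnr by 1438651_a_at, −0.47 to −0.29 by 1423037_at, and 2.40 to 2.87 for the shift. For Aplnr by 1438651_a_at and for the shift the probe set rule moved the value most: as the mean of its probe sets Aplnr was at −1.22, and the shift was 1.85 with that mean and 1.02 with 1423037_at. With array medians subtracted the differences were 0.61, −2.08 and −0.42, and after a second quantile normalization 0.64, −2.04 and −0.42. The replicate block left these values as they were. It raised the count of called genes from 31 to 71 higher and from 9 to 26 lower. Over omissions of an array the higher genes numbered 15 (without Control 4) to 40 and the lower 6 to 10, and over omissions of a pair 8 to 24 and 1 to 6, lowest without replicate 4. The apelin pathway count was 0 in each alternative. Uncalled differences near 0 turned in sign for Apela (0.054 as the mean of its probe sets, 0.030 without Z/Edn2 4, 0.0003 without Control 4, 0.063 without replicate 4, with −0.12 to 0.063 over pairs left out) and for Agtr1b (−0.033 without replicate 2, with −0.033 to 0.15 over pairs). The causes were not tested. Dim signals, such as those of Apela, Mme and Agtr1b, limit what could be seen.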
